A study of Populus tremula x Populus alba with 2 samples.

Results

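Gene models that lie on unplaced scaffolds of the poplar genome, the assembly pieces not joined to any of the 19 chromosomes, were described in young stems of MOMT4 transgenic and WT hybrid aspen. The members are all poplar models of the deposited table whose position is not on a chromosome and whose status is not a failed one. This gave 1821 models on 360 scaffolds, 4.41% of the 41333 poplar models kept, and 39512 models lay on chromosomes. The whole table has 41336 entries, among them 2 failed models, both on chromosomes, and the transgene.

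The tested trees were of 1 transgenic line, MOMT4-0, carrying a monolignol 4-O-methyltransferase engineered from isoeugenol 4-O-methyltransferase and driven by the bean PAL2 promoter. The control trees were WT, and both were hybrid aspen (Populus tremula x Populus alba), coppiced and kept for about 2 months in a greenhouse. Stem internodes 1 to 15, counted from the top and stripped of bark, gave about 100 mg of tissue pooled from 2 to 3 plants, and each pool became 1 strand-specific library. With 1 library per group no difference between the lines has a replicate check, no test was made, and every value below describes these 2 libraries. Reads were single-end, of 100 bp by the methods and of 50 bp by the series text.

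Monolignols are the alcohols that polymerise into lignin, and a methyl group on their para-hydroxyl blocks the coupling by which the polymer grows. Unplaced scaffolds of a plant genome are commonly repeat-rich stretches, second copies of a heterozygous region that the assembler kept apart, or fragments too short to be anchored on a genetic map. Gene models drawn on them can therefore be intact genes, near-identical copies of chromosomal genes, or pieces of genes and of mobile elements. Reads that match several such copies equally well are hard to assign, and these reads came from a hybrid of other Populus species than P. trichocarpa, whose genome served as the reference.

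The transgene was checked first. It had 1221.8 RPKM (reads scaled to exon length and to the mapped reads of the library, a level per length) in the MOMT4 library and 4.79 RPKM in the WT library. Its 1122 bases correspond to 10489 reads under the MOMT4 heading and 38 under the WT heading. The column headings were followed throughout, although the short codes in the sample descriptions run the other way round. The spacing of low values gave library totals near 9460000 for MOMT4 and 8750000 for WT, so a single read counts for 1.08 times more RPKM in WT. The table pairs its identifiers with no gene names, so neither the functions of the scaffold models nor the markers of debarked stem were examined, and models are given by scaffold, start and end.

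Fewer scaffold models than chromosome models of the same span carried any signal. Above 0 RPKM in either library were 900 of the 1821 scaffold models (49.4%), against 28483 of 39512 chromosome models (72.1%). Single chromosomes ran between 60.5% for chromosome 19 and 76.7% for chromosome 6, so the scaffold share lay under that of each of the 19 chromosomes. Weighting the chromosome models to the spans of the scaffold models brought their share to 64.4%, still above the scaffold share.

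Both libraries gave nearly the same picture. On scaffolds 830 models (45.6%) were above 0 in MOMT4 and 808 (44.4%) in WT, and 738 (40.5%) in both, against 66.5% of chromosome models in both. The 92 scaffold models above 0 in MOMT4 alone (5.05%, against 3.15% of chromosome models) had a median of 0.159 RPKM and reached 3.84 RPKM. The 70 above 0 in WT alone (3.84%, against 2.42%) had a median of 0.193 RPKM and reached 8.60 RPKM. Most of these values were low, with 4 of the 92 and 6 of the 70 at 1 RPKM or more, against 101 of 1245 and 111 of 956 on chromosomes.

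Listed at 0 in both libraries were 921 scaffold models (50.6%), against 27.9% of chromosome models and 35.6% after weighting to the same spans. At this depth a value of 0 is not absence of transcript. For a model of 1877 bases counted over its whole span, 0 reads allow up to 3 reads, equal to 0.191 RPKM in MOMT4 and 0.206 RPKM in WT, and for a model of 600 bases 0.823 and 0.889 RPKM. These limits cover counting error only, and are higher where introns make the counted length shorter.

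Scaffold models were short. Their median span, first to last base with introns included, was 1877 bases (quartiles 865 and 3360), against 2633 bases on chromosomes (quartiles 1286 and 4532). The shortest, on scaffold 68 (130783 to 130983), spanned 201 bases and had 10.3 RPKM in MOMT4 and 5.55 RPKM in WT. The longest, on scaffold 75 (151429 to 167063), spanned 15635 bases and was listed at 0 in both. Scaffold models with signal had a median span of 2744 bases and those at 0 in both 1190 bases, against 3351 and 1035 bases on chromosomes. An overlap with another model was found for 66 scaffold models (3.62%), against 7.65% of chromosome models, and the table gives overlapping models a single joint interval.

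The signal share grew with span on scaffolds and on chromosomes, but with a gap that depended on span. The ranges given for the 4 classes are those of scaffold models. Chromosome models started at 93 bases in the shortest class and reached 41460 bases in the longest. Among models of 201 to 865 bases, 98 of 456 on scaffolds had signal (21.5%), against 24.3% on chromosomes in the same class. From 869 to 1877 bases it was 179 of 455 (39.3%), against 59.7%. The gap was thus narrow in the shortest class and wide in the next. From 1879 to 3360 bases 281 of 455 had signal (61.8%), against 81.8%. In the longest class, from 3366 to 15635 bases, 342 of 455 had signal (75.2%), against 91.8%. The lower share on scaffolds was therefore present in all 4 classes, and smallest where models of either kind seldom had signal.

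**Figure D1:**
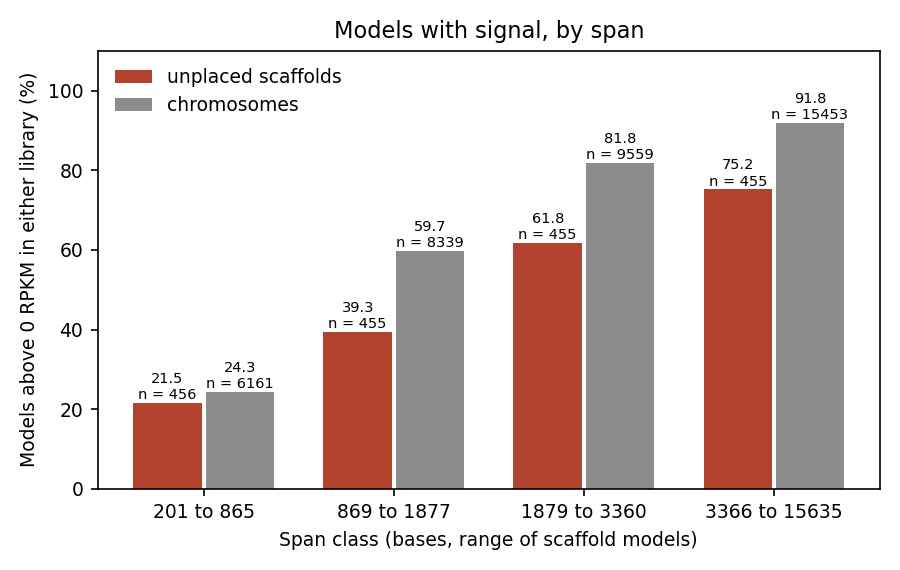
Share of models above 0 RPKM in either library (per cent, vertical axis) in 4 classes of span (bases, horizontal axis), scaffold models in red and chromosome models in grey, with the number of models in each class. The scaffold bars are lower in all 4 classes, by little in the shortest (21.5% against 24.3%) and by more in the others.

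Exon lengths were not given, so a span is not a transcript length. Copies of a model elsewhere in the genome were looked for through models whose 2 RPKM values equal those of another model to all 6 digits. There were 11 such models among the 738 scaffold models above 0 in both (1.49%), against 120 of 26282 on chromosomes (0.457%). These shares were not matched on level. A mean under 2 RPKM was found for 424 of the 738 scaffold models, against 5973 of the 26282 on chromosomes. Of the 11, 2 also had the span of their counterpart. The model on scaffold 39 (131996 to 132549) and one on chromosome 13 (163374 to 163927) both spanned 554 bases with 0.623 RPKM in MOMT4 and 0.337 RPKM in WT. The model on scaffold 670 (13545 to 14080) and one on chromosome 17 (12411917 to 12412452) both spanned 536 bases with 0.329 RPKM in MOMT4 and 0.355 RPKM in WT. These 2 pairs rest on few reads (2 in MOMT4 and 1 in WT for the first, 1 and 1 for the second). The largest fixed read numbers were 10 in MOMT4 and 9 in WT, in a model on scaffold 263 (12999 to 14785, 1787 bases). It had 0.672 RPKM in MOMT4 and 0.654 RPKM in WT, equal to a model of another span, 2429 bases, on chromosome 2 (23848583 to 23851011). The highest shared value was 1.97 RPKM in MOMT4. Equal read numbers over equal counted lengths and copies were not told apart. The part of such models in the lower signal share was not tested.

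The scaffolds differ widely in size. A single model was placed on 105 of them, 2 to 5 on 160, 6 to 20 on 80 and over 20 on 15, with a median of 3. The share with signal was 41.9% (44 of 105) where a model stood alone, 46.9% (221 of 471) on scaffolds of 2 to 5 models, 49.5% (378 of 764) on those of 6 to 20 and 53.4% (257 of 481) on the largest. Pooled, the 15 largest scaffolds thus also had a share below that of each chromosome, although single ones among them did not. No model had signal on 101 scaffolds, which hold 188 models and at most 11 each. On 72 scaffolds every model had signal, but only 7 of these carry 3 models or more.

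Individual large scaffolds departed from each other. Of the 3 scaffolds with most models, scaffold 25 had signal in 36 of 58, scaffold 20 in 35 of 56 and scaffold 30 in 28 of 46. Past a mean of 1 RPKM over both libraries were 20, 14 and 2 of these models, so scaffold 30 had many models at trace levels. Scaffold 27, picked after its values were seen, had signal in 4 of 34 models (11.8%). The 71 models that start within 500 bases of the scaffold start had signal in 31 cases (43.7%), against 869 of the other 1750 (49.7%), and were shorter, with a median span of 1296 bases against 1902.5.

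Levels were also low where there was signal. A mean of at least 1 RPKM, the filter used for ratios below, was reached by 417 scaffold models (22.9%), against 22527 chromosome models (57.0%, or 48.9% at the same spans). At least 10 RPKM was reached by 105 scaffold models (5.77%), against 30.8% on chromosomes. At least 100 RPKM was reached by 11 (0.604%), against 1168 (2.96%). Past the filter the median of the mean level was 4.23 RPKM on scaffolds, against 11.4 RPKM on chromosomes and 10.2 RPKM on chromosomes at the same spans. Scaffold models were thus scarcer than chromosome models at each of these levels.

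Summed over all 1821 models, scaffolds held 6047 RPKM in MOMT4 and 6132 RPKM in WT, 0.916% of the poplar total in each library. A few models carried much of it. The 10 highest held 29.6% of the scaffold sum in MOMT4 and 29.8% in WT, against 3.74% and 4.63% for the 10 highest on chromosomes, a far longer list. By scaffold, 4 of the 360, with 107 models, held 32.0% of the sum in MOMT4 and 31.0% in WT. Scaffold 25 summed to 585.6 RPKM in MOMT4 and 572.5 RPKM in WT, and scaffold 480 to 478.1 and 499.0 RPKM. Scaffold 61 summed to 459.9 RPKM in MOMT4 and 472.8 RPKM in WT, and scaffold 36 to 411.6 and 355.6 RPKM. Scaffold 480 reached this with 4 models, nearly all of it from a single one, whereas scaffold 25 has 58.

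The most abundant scaffold model, on scaffold 480 (26310 to 29375), had 447.5 RPKM in MOMT4 and 467.7 RPKM in WT, log2 ratio -0.06 (MOMT4 over WT, 1 RPKM added to each). It was number 104 among all poplar models in MOMT4 and number 100 in WT, and 8 scaffold models in MOMT4 and 10 in WT were among the 1000 highest. Next in MOMT4 was a model on scaffold 36 (269319 to 270651), with 217.7 RPKM in MOMT4 and 179.5 RPKM in WT, log2 ratio 0.28. The abundant models differed little between the libraries, as the following 3 also show.

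On scaffold 752 a model (2572 to 3508) had 208.5 RPKM in MOMT4 and 191.9 RPKM in WT. Its values came to whole reads over the whole span, 1425 in MOMT4 (exact Poisson 95% interval 1352 to 1501) and 1213 in WT (1146 to 1283). The model on scaffold 25 (171956 to 173273) had 157.0 RPKM in MOMT4 and 160.8 RPKM in WT, or 1639 reads (1561 to 1720) and 1553 reads (1477 to 1632). Scaled by the library totals, the ratio of MOMT4 to WT was 1.09 for the model on scaffold 752 (exact 95% interval 1.01 to 1.17) and 0.976 for that on scaffold 25 (0.910 to 1.05). These intervals cover counting error only, not the spread between plants, and they are narrow because the read numbers are large. On scaffold 702 a model (7758 to 9802) had 162.6 RPKM in MOMT4 and 178.6 RPKM in WT, log2 ratio -0.13.

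The other 5 of the 10 highest in MOMT4 lay between 111.8 and 131.0 RPKM in that library and between 90.7 and 146.3 RPKM in WT. Their log2 ratios ran between -0.23, on scaffold 782 (10383 to 11511), and 0.37, on scaffold 1214 (11399 to 12411). A model on scaffold 49 (157354 to 158584) was nearly equal, at 113.3 RPKM in MOMT4 and 112.2 RPKM in WT. Scaffold 61 contributed a pair, at 49920 to 54903 with 131.0 RPKM in MOMT4 and 121.2 RPKM in WT and at 61350 to 63486 with 111.8 and 125.3 RPKM.

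The list of the 10 highest in WT held 2 models that the list in MOMT4 did not, and both were short. That both were lower in MOMT4 follows from how they were picked. On scaffold 728 (13469 to 13886, 418 bases) the levels were 70.0 RPKM in MOMT4 and 138.3 RPKM in WT, log2 ratio -0.97. On scaffold 28 (230695 to 231069, 375 bases), the model Potri.T020500 had 34.8 RPKM in MOMT4 and 115.9 RPKM in WT, log2 ratio -1.70. These 2 were the widest differences among the abundant models, and both lie in models of which the counted length, the span less about 214.5 bases for a single exon, is small.

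**Figure D2:**
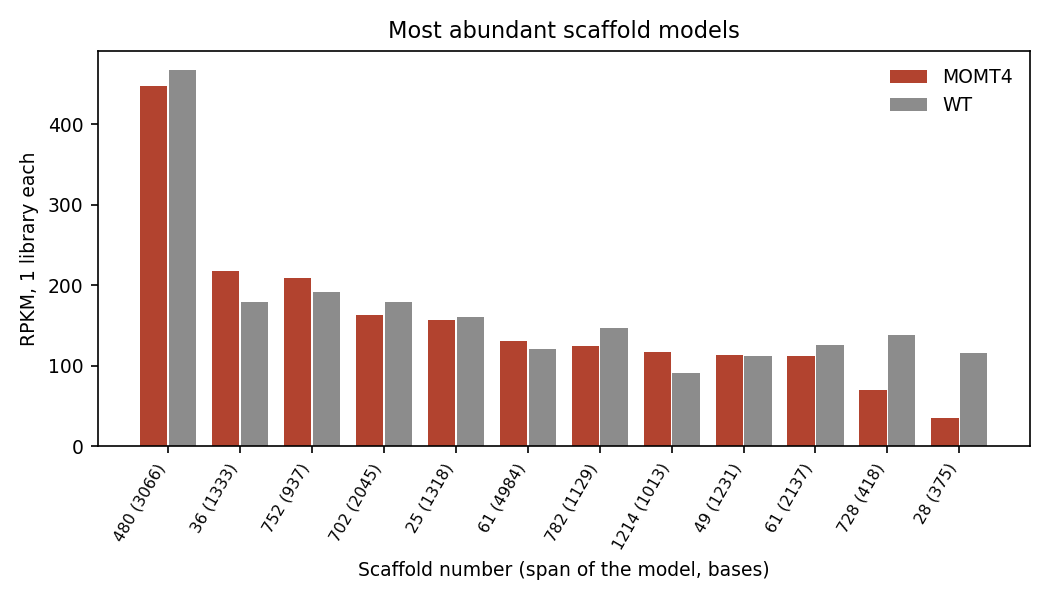
RPKM in the MOMT4 library (red) and the WT library (grey) for the 12 models among the 10 highest of either library, labelled by scaffold number and span in bases, 1 library per bar. The bars of a pair are of similar height except for the 2 shortest models, on scaffolds 728 and 28, which are lower in MOMT4.

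Between the lines most scaffold models differed little. Over the 417 models past the filter the median log2 ratio was 0.02, with 218 above 0 and 199 below. The median over chromosome models was -0.0059, and 0.0071 after weighting to the spans and means of the scaffold models. The spread was wider on scaffolds. The central 95% of log2 ratios ran from -1.03 to 1.02 on scaffolds, against -0.62 to 0.71 on chromosomes and -0.80 to 0.90 on chromosomes weighted to the same spans and means. The interquartile range was -0.21 to 0.29 on scaffolds, against -0.17 to 0.16 on chromosomes and -0.19 to 0.22 at the same spans and means.

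**Figure D3:**
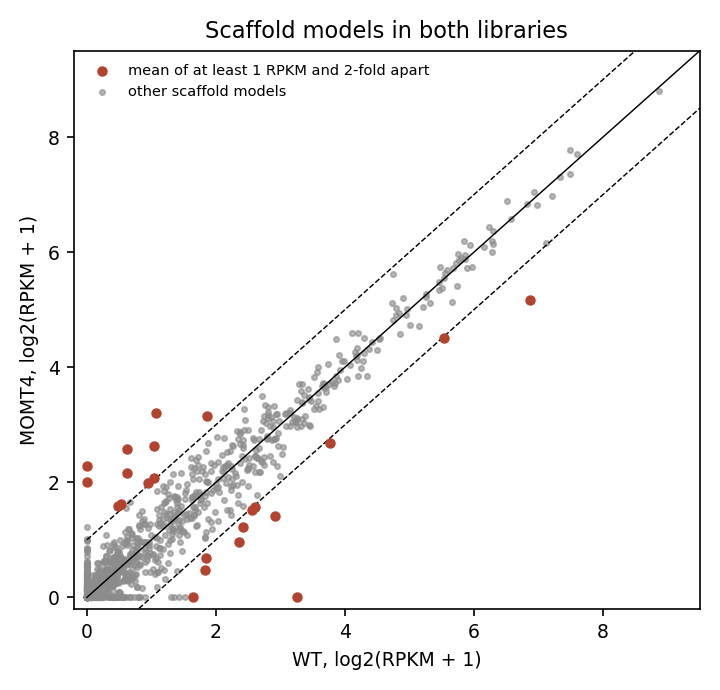
Level of each of the 1821 scaffold models in the MOMT4 library (vertical axis) against the WT library (horizontal axis), both as log2(RPKM + 1), with lines of equality (solid) and of 2-fold differences on that scale (dashed). The 23 models past a mean of 1 RPKM and at least 2-fold apart are in red, and lie mostly at low levels.

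Outside 2-fold were 23 of the 417 (5.52%), 11 higher in MOMT4 (2.64%) and 12 lower (2.88%). The filter is on the mean of both libraries, on scaffolds and chromosomes alike, so a model can pass it through its higher library alone. Of the 23, 2 were listed at 0 in WT and 2 in MOMT4, and others were under 1 RPKM in their lower library. Over all 22944 poplar models past the filter, scaffolds included, 1.77% were 2-fold apart, 1.08% higher and 0.684% lower. On chromosomes it was 382 of 22527 (1.70%), and 3.35% at the same spans and means (1.96% higher and 1.39% lower), equal to 14.0 among 417 models. Single chromosomes ran between 1.04% and 3.60%, the highest being chromosome 19, which also had the lowest share with signal. The scaffold share was above all of these values, as a description of 1 pair of libraries.

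By level, the scaffold share was above the chromosome share in each class, though clearly so only at the lower 2. The classes were not matched on span, of which the median past the filter was 2706 bases on scaffolds and 3672 bases on chromosomes. At means of 1 to 2 RPKM, 9 of 102 scaffold models were 2-fold apart (8.82%), against 5.53% on chromosomes, and at 2 to 5 RPKM 10 of 132 (7.58%), against 3.14%. At 5 to 20 RPKM it was 2 of 121 (1.65%), against 1.05%, and at 20 RPKM and above 2 of 62 (3.23%), against 0.580%. The upper 2 counts are of 2 models each, and at 5 to 20 RPKM the share was close to that on chromosomes. The width between quartiles, which a few extreme models do not set, was 0.59, 0.59, 0.42 and 0.27 on scaffolds from the lowest to the highest of these levels, against 0.53, 0.45, 0.32 and 0.26 on chromosomes.

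**Figure D4:**
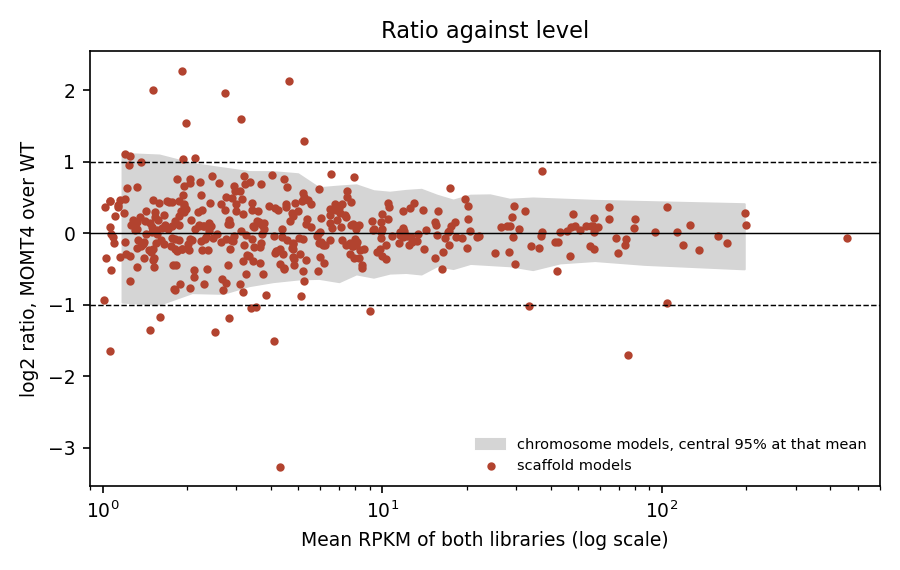
Log2 ratio of MOMT4 over WT (1 RPKM added to each) against the mean RPKM of both libraries (log scale) for the 417 scaffold models past the filter, in red, over the central 95% of chromosome models at each mean (grey band). Dashed lines mark 2-fold, and most models beyond them have a mean under 5 RPKM.

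The models outside 2-fold were low in level for the most part. Of the 23, 19 had a mean under 5 RPKM, and the median of their means was 2.74 RPKM. Their median span was 1236 bases, and 6 spanned under 600 bases. They lay on 21 scaffolds, with 2 each on scaffolds 21 and 25, and none overlapped another model. In 7 the number of reads could be fixed from the spacing of the values, and in 5 of the 7 the exact 95% interval of the read ratio excluded 1, as counting error only. These models were picked for large ratios. Over all models past the filter with fixed reads, the interval excluded 1 in 18 of 84 on scaffolds (21.4%), against 490 of 2860 on chromosomes (17.1%). In 4 of the 7 both libraries together had under 20 reads.

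Higher in MOMT4 by most was Potri.T013400, on scaffold 25 (249951 to 250702), with 3.84 RPKM in MOMT4 and listed at 0 in WT, log2 ratio 2.27, a size that depends on the added 1 RPKM. It had at most 19.5 reads in MOMT4. The next, Potri.T156700 on scaffold 662 (12673 to 12987), had 8.20 RPKM in MOMT4 and 1.11 RPKM in WT, log2 ratio 2.13. These are 8 reads in MOMT4 and 1 in WT, a ratio of 7.40 after scaling by the library totals, with an exact 95% interval of 0.992 to 328, so the interval includes 1.

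A model on scaffold 128 (22878 to 23194) had 3.02 RPKM in MOMT4, about 3.07 reads at most, and was listed at 0 in WT. On scaffold 31 (85565 to 85992) the levels were 4.95 RPKM in MOMT4 and 0.535 RPKM in WT, from 10 reads and 1 read, a ratio of 9.25 (1.32 to 401). On scaffold 226 (51414 to 55069) they were 2.94 RPKM in MOMT4 and 0.917 RPKM in WT, from 59 and 17 reads, a ratio of 3.21 (1.85 to 5.87). The last of these was the best counted of the higher models with fixed reads, though close to the 2-fold limit, at a log2 ratio of 1.04.

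Without fixed reads were 6 further higher models. That on scaffold 899 (11976 to 13794) had the highest level of them, 7.84 RPKM in MOMT4 and 2.63 RPKM in WT, log2 ratio 1.29. That on scaffold 50 (123589 to 125176) had 5.18 RPKM in MOMT4 and 1.05 RPKM in WT, log2 ratio 1.59, and that on scaffold 449 (17130 to 18365) 3.45 and 0.532 RPKM, log2 ratio 1.54. The 3 others had log2 ratios between 1.05 and 1.11. They lay on scaffold 29 (525524 to 527487), with 2.00 RPKM in MOMT4 and 0.394 RPKM in WT, scaffold 47 (1993 to 5721), with 2.07 and 0.447 RPKM, and scaffold 480 (22108 to 25384), with 3.23 and 1.05 RPKM. The model on scaffold 480 is the neighbour of the most abundant scaffold model, whose levels were nearly equal in both libraries.

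Lower in MOMT4 by most was Potri.T006100, on scaffold 21 (609805 to 610085, 281 bases), listed at 0 in MOMT4 and with 8.60 RPKM in WT, log2 ratio -3.26. It was the single scaffold model at 5 RPKM or more in one library and 0 in the other. Its span less about 214.5 bases leaves little counted length, which would hold about 5.38 reads in WT at most. That bound was not relied on for spans under 300 bases, but the value rests on few reads. Potri.T020500, described above, came next, and was the highest in level of all 23, with at most 54.5 reads in MOMT4 and 167.8 in WT. A model on scaffold 589 (20269 to 21777) had a value of 0 in MOMT4, against 2.13 RPKM in WT, at most 24.2 reads.

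Read numbers were fixed for 4 of the lower models. On scaffold 21 (437439 to 438350) the levels were 1.67 RPKM in MOMT4 and 6.55 RPKM in WT, from 11 and 40 reads, a ratio of 0.254 (0.118 to 0.505). On scaffold 263 (22753 to 23503) they were 0.394 RPKM in MOMT4 and 2.56 RPKM in WT, from 2 and 12 reads, a ratio of 0.154 (0.0168 to 0.692). On scaffold 136 (25701 to 26669) they were 1.98 RPKM in MOMT4 and 5.08 RPKM in WT, from 8 and 19 reads, a ratio of 0.389 (0.147 to 0.932). In these 3 the interval lay below 1. On scaffold 25 (354875 to 355198) the levels were 0.948 RPKM in MOMT4 and 4.10 RPKM in WT, from 1 and 4 reads, a ratio of 0.231 (0.0047 to 2.34), so the interval there includes 1.

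The 5 remaining lower models had log2 ratios between -1.19 and -1.03. Among them were 2 with higher levels, on scaffold 66 (116629 to 118235), with 21.7 RPKM in MOMT4 and 45.3 RPKM in WT, and on scaffold 41 (128054 to 129591), with 5.46 RPKM in MOMT4 and 12.7 RPKM in WT. Those on scaffolds 75 (134530 to 135507), 168 (146099 to 148778) and 185 (52689 to 55049) had 1.34, 0.602 and 1.85 RPKM in MOMT4, against 4.34, 2.60 and 4.91 RPKM in WT. The limit of 2-fold passes through a continuous range of values. Just past it were the models on scaffold 66, at -1.03, and scaffold 136, at -1.03. Just short of it were those on scaffold 158 (30716 to 31126), at 0.99, scaffold 728, at -0.97, and scaffold 24 (273354 to 274674), at 0.95. The model on scaffold 158 had 4 reads in MOMT4 and 1 in WT, a ratio of 3.70 (0.366 to 182).

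Scaffolds whose models shift together were looked for by a rule: at least 3 models past the filter, all on the same side of 0, and a median at least 0.5 from 0 on the log2 scale. Of the 360 scaffolds 45 had at least 3 models past the filter, 234 models in all, and 0 of the 45 met the rule. The same rule on every stretch of 3 neighbouring chromosome models was met by 247 of 22489 (1.1%). Taken over stretches of the sizes of the 45 scaffolds, it would have been met by 0.254 of them, so the count of 0 is close to this background. The stretches were not matched to the scaffold models on span or mean. Past the filter the median of the mean level was 11.4 RPKM on chromosomes, against 4.23 RPKM on scaffolds. All models lay on one side of 0 on 10 scaffolds, 5 above and 5 below, against 6.49 by chromosome stretches of the same sizes.

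Medians of the 45 scaffolds were balanced, with 23 above 0 and 22 below, and all but 1 lay between -0.41 and 0.37. Closest to the rule were scaffold 169, with 3 models above 0 and a median of 0.37, scaffold 946, with 3 below 0 and a median of -0.41, and scaffold 56, with 4 below 0 and a median of -0.38. A limit of 0.3 would have admitted these 3, against 1.09 by chromosome stretches. The 3 scaffolds with most models past the filter each had models on both sides of 0. Scaffold 25 had 8 models above 0 and 12 below, with a median of -0.04, scaffold 20 had 11 above and 3 below, with a median of 0.21, and scaffold 61 had 4 above and 8 below, with a median of -0.17.

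**Figure D5:**
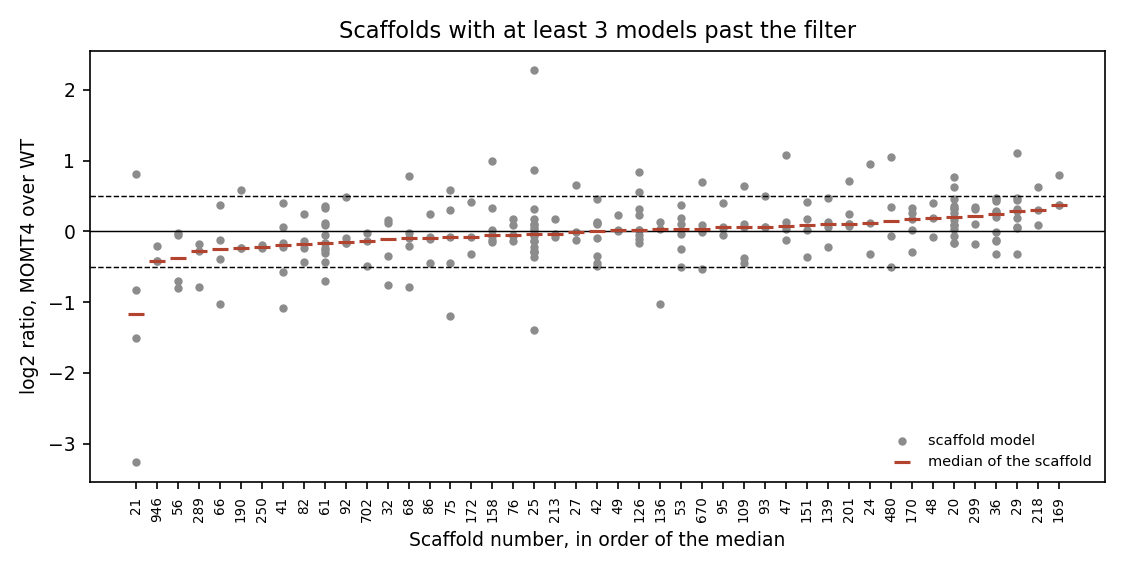
Log2 ratio of MOMT4 over WT (1 RPKM added to each) for each model past the filter (grey points) on the 45 scaffolds with at least 3 such models, in the order of the scaffold medians (red bars). Dashed lines mark a median 0.5 from 0, beyond which only the median of scaffold 21 lies, and that scaffold has a model on the other side of 0.

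Scaffolds 21, 20 and 29 were picked for a closer description after their values were seen. Scaffold 21 had the lowest median, -1.17, over 4 models past the filter, but they did not lie on one side. Beside the 2 lower models above, another (435395 to 436960) had 2.01 RPKM in MOMT4 and 4.35 RPKM in WT, log2 ratio -0.83. The last (439091 to 439519) had 5.42 RPKM in MOMT4 and 2.66 RPKM in WT, log2 ratio 0.81, from 11 and 5 reads, a ratio of 2.04 (0.652 to 7.47). That model starts within 1 kb of the end of a lower one, but its interval includes 1, so its direction is not fixed by these reads.

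On scaffold 20 the log2 ratios of the 14 models ran from -0.17 to 0.76. The highest ratios were those of a neighbouring pair, at 569268 to 572872 with 5.88 RPKM in MOMT4 and 3.05 RPKM in WT, and at 584451 to 588056 with 1.70 RPKM in MOMT4 and 0.746 RPKM in WT. Its most abundant model (412239 to 413746) had 35.9 RPKM in MOMT4 and 28.7 RPKM in WT, log2 ratio 0.31. The 3 models below 0 lay at -0.17 to -0.06, near equality, and all 3 were among the last 4 models of the scaffold past the filter.

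Scaffold 29 had 8 of 9 models above 0, with a median of 0.29. The 8 had low levels, between 1.35 and 5.65 RPKM in MOMT4 and between 0.394 and 4.37 RPKM in WT. The model below 0 (294236 to 299275) was the abundant one, with 41.7 RPKM in MOMT4 and 52.0 RPKM in WT, log2 ratio -0.31. A sum of levels over the scaffold would thus point the other way from the count of its models.

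Neighbours were compared pair by pair. Of 230 pairs of consecutive models past the filter on a scaffold, 131 lay on the same side of 0 (57.0%), against 51.4% of 22508 pairs on chromosomes. Both models were past 0.5 on the same side in 4 pairs (1.74%), against 0.809% on chromosomes, and both past 1 in 0 pairs, against 17 (0.0755%). The chromosome pairs were not matched on span or mean. The 4 pairs lay on scaffolds 20 and 126, higher in MOMT4, and on scaffolds 21 and 56, lower in MOMT4.

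The pair on scaffold 126 had 8.64 RPKM in MOMT4 and 4.41 RPKM in WT at 41820 to 42914, and 6.41 RPKM in MOMT4 and 4.03 RPKM in WT at 44258 to 48905. The pair on scaffold 56 had 1.51 RPKM in MOMT4 and 3.10 RPKM in WT at 81126 to 82088, and 1.06 RPKM in MOMT4 and 2.57 RPKM in WT at 82329 to 83015. The models of these pairs differed by 0.56 to 0.83 in size on the log2 scale, below the 2-fold limit. Whether the paired models are separate genes or pieces of 1 transcript was not tested.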

How the data were processed

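RNA-seq was made from debarked young stems, 1 library each of MOMT4 and WT. With TopHat, the authors mapped reads onto the P. trichocarpa genome allowing 1 mismatch. They counted reads per gene, deposited RPKM values, and ran Cuffdiff on the pair of libraries. Bowtie is also named in the submitters' processing notes. Build and program versions are not given in the sources used here. The deposited columns of the authors' own comparison (log2 ratio, test statistic, p and q values and a significance call) were not used, and 0 columns of values could not be matched to a sample. Positions have 1 added to the start.

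Log2 ratios were those of MOMT4 over WT after adding 1 RPKM, over models with a mean of at least 1 RPKM. Chromosome models were weighted to the 4 quartile classes of span, or of span by mean, of the scaffold models. Whole reads came from the ratio of the 2 RPKM values, matched to whole numbers up to 60, and from models whose full span gave whole reads. A whole pair was found for 508 of 738 scaffold models above 0 in both (68.8%), against 34.0% on chromosomes. At a mean under 2 RPKM the shares were closer, 85.6% on scaffolds and 79.8% on chromosomes. Reads were called fixed in 220 scaffold models. Intervals are exact (Poisson for reads, Clopper-Pearson for ratios, 95%). No test was made. The recovery of library totals and reads and the weighting by classes were tested on simulated data made of whole reads. The shift rule, the neighbour pairs and the search for equal values were not tested in this way.

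Models were named by rule: the 10 highest in each library, the 10 largest and 10 smallest log2 ratios, models of scaffolds that meet the shift rule (none did), the 3 scaffolds with most models, the longest and the shortest model, and those at 0 in 1 library with at least 5 RPKM in the other. The members, lists and limits were chosen with earlier results of these data known. Annotation lists and tissue markers were not used here, since identifiers have no names. The alternatives covered pseudocounts, filters, limits, centring, spans, overlaps, classes and the leading scaffold. The software was NumPy 2.4.6 and pandas 2.3.3 under Python 3.11.15, with SciPy 1.17.1 for intervals and matplotlib 3.10.9 for plots.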

Additional observations from a re-analysis of the deposited data

How the results depend on the processing

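No paired analysis was possible because neither MOMT4 nor WT has a replicate. Of 43 alternatives, 28 left the value within its limit and 15 moved it. The share of scaffold models with signal was 45.6% in MOMT4 alone, 44.4% in WT alone, 40.5% in both, 22.9% at a mean of at least 1 RPKM, 55.5% over models of at least 600 bases and 100% among models marked as testable, a mark given mostly to models with reads. The number of models 2-fold apart was 43 with a pseudocount of 0.1 (10.3%, against 3.63% on chromosomes) and 4 at a mean of at least 5 RPKM (2.19%, against 0.840%). It was 66 with a limit of 1.5-fold (15.8%, against 6.90%) and 4 with a limit of 4-fold (0.959%, against 0.293%). Higher and lower models numbered 21 and 22 with the lower pseudocount, and 37 and 29 with the lower limit. Scaffolds that shift together numbered 3 with a median limit of 0.3, 1 when 1 model may lie on the other side, and 2 with a pseudocount of 0.1. Ranking by level times span kept 4 of the 10 most abundant models. The median span was 2706 bases past the filter. The 2-fold share was higher on scaffolds than on chromosomes under the 4 settings given for it. Without the expression filter the shares were closer, 29 of 1821 scaffold models (1.59%), against 1.35% on chromosomes. These chromosome shares were not weighted to the spans and means of the scaffold models. In the main setting such weighting raised the chromosome share from 1.70% to 3.35%. With 8 classes of span by 8 of mean it was 3.69%. The gaps under these other settings are therefore not gaps at the same spans and means. A mean of at least 5 RPKM was reached by 4 of the 23 models 2-fold apart and by 183 of all 417 past the filter, and the part of depth in this was not tested.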
